A study of Mus musculus with 16 samples.

Results

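Rdh16f2, Aldh1a1 and Aldh1a7 are the retinoid dehydrogenases whose transcripts stood out in kidneys of mice lacking the peptide transporter gene Slc15a2 (Pept2). They are 3 of the 6191 genes that could be tested, and each was measured by 1 of the 20205 probes on the array. They were chosen from the measurements themselves, Rdh16f2 for a ratio shared by all knockout kidneys and both Aldh1a genes for their variation among these kidneys. Those values are therefore given as a description and without a test. The knockout kidneys were right kidneys of 4 Pept2-/- males, 88 (±2) days old, on a mixed C57BL/6 and 129Sv background, descended from F4 animals of a Pept2+/- line. They were compared with 1 RNA pool of right kidneys from 5 Pept2+/+ males of the same breeding and age. The pool hides how wild-type kidneys vary among themselves, and all knockout mice are read against that same RNA. Each knockout mouse was hybridised against the pool on 4 two-colour spotted cDNA arrays, with its RNA in channel 1 on 2 arrays and in channel 2 on 2 arrays, which makes 16 arrays of 4 animals.

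Vitamin A acts mostly after it has been oxidised. Retinol, the circulating alcohol, is first turned into retinaldehyde by retinol dehydrogenases of the short-chain and alcohol dehydrogenase families, and retinaldehyde is then turned irreversibly into retinoic acid, the ligand of the nuclear receptors RAR, by aldehyde dehydrogenases of the Aldh1a group. The kidney proximal tubule takes up filtered retinol with its binding protein through megalin. Rdh16f2 is a short-chain dehydrogenase related to the retinol dehydrogenase Rdh16. Aldh1a1 is a cytosolic retinaldehyde dehydrogenase, and Aldh1a7 is its close rodent paralog, which acts on other aldehydes and poorly on retinaldehyde.

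The 3 genes lie in 2 gene clusters. In the annotation used here (GRCm38.p6) Rdh16f2 spans chr10:127866476-127877319, between Rdh19 and Rdh7 in a row of related genes that also holds Rdh1, Rdh9 and Rdh16. Aldh1a1 spans chr19:20492583-20643463, and Aldh1a7, on the opposite strand, is the next protein-coding gene at chr19:20692953-20727556. Because both Aldh1a genes had similar values over the mice, the 250 bases before their starts are shown, from RefSeq (GRCm38.p6), with every stretch of 10 or more bases that the other gene also holds in capitals. The Aldh1a1 window is chr19:20601718-20601967 on the plus strand, before the nearer to Aldh1a7 of its 2 annotated starts, and the Aldh1a7 window is chr19:20727557-20727806 on the minus strand.
Aldh1a1: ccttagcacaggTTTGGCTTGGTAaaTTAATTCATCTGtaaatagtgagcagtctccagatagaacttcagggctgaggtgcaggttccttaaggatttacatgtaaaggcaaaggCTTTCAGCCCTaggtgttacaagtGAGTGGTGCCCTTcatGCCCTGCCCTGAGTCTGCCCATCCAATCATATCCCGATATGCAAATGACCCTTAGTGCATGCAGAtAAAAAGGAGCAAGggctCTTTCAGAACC
Aldh1a7: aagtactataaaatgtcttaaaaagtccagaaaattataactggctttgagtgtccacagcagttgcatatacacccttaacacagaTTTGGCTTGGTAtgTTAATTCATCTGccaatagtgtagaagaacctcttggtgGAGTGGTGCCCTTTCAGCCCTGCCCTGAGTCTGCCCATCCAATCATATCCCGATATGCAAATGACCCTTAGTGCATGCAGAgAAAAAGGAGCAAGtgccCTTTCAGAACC

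Over the whole windows 175 bases could be aligned, of which 160 were identical (91.4%). In the last 100 bases before the start 94 of 100 aligned bases were identical (94.0%), and the longest run without a difference was 65 bases. Both windows hold the octamer ATGCAAAT, searched on both strands, which 1.6% of all 32851 promoter windows of this length hold, and a CCAAT box, which 33.8% hold. Neither holds the nuclear receptor half-site AGGTCA (14.0% of windows) or the antioxidant response core TGACNNNGC (10.2%). The letters of the TATA box, TATAAA (12.4%), are in the Aldh1a7 window but not in that of Aldh1a1. They lie at the end of the Aldh1a7 window farthest from the start, outside the last 100 bases. The window of Rdh16f2, at chr10:127866226-127866475 on the plus strand, is shown with AGGTCA in capitals, which it holds in 2 places.
Rdh16f2: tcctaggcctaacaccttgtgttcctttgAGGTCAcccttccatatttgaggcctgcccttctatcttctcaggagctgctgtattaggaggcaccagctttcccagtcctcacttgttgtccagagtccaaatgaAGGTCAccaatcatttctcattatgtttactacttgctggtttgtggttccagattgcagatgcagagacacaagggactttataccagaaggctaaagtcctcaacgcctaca

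A match to these letters describes the window and does not show that a factor binds there. The ratios below are log2 of knockout over the wild-type pool. The direction of the deposited ratio is not in the labels. Channel 1 over channel 2 was taken as likely on the basis of Slc15a2, which was lower in knockout kidney on all 16 arrays when read that way (mean log2 ratio -2.51, SD 0.31, n = 4 mice). Read the other way, every ratio would change its sign. Between 10134 and 18400 probes had a value on an array. The highest correlation between arrays across probes (r = 0.62) joined array 3 of mouse 3 to array 1 of mouse 4. These are labelled as different animals, and both had knockout RNA in channel 2. Arrays of different mice had a median r of 0.17 with knockout RNA in the same channel and 0.03 in opposite channels. For arrays of the same mouse these medians were 0.25 and 0.11. Values of mice 3 and 4 are also given without the arrays of that top pair, which stand apart, for the genes on which results turn. Ratios give no level, so the kidney label could not be checked against levels of its markers.

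Rdh16f2 had a positive ratio on all 16 arrays. The 4 arrays of mouse 1 gave 0.77, 0.52, 0.88 and 0.93, and those of mouse 2 gave 0.71, 0.87, 0.86 and 0.98. Those of mouse 3 gave 0.61, 0.45, 0.49 and 0.60, and those of mouse 4 gave 0.58, 0.44, 0.47 and 0.33. Every array lay above the pool, and mice 1 and 2 lay above mice 3 and 4 apart from 1 array of mouse 1, at 0.52. By mouse the values were 0.78, 0.85, 0.54 and 0.46, a mean of 0.66 ± 0.19 (SD, n = 4 mice), or 1.57-fold higher in knockout kidney. The shared shift was thus larger than the spread around it. Among all 6191 genes this was the 3rd largest mean ratio by absolute size, and the 2nd highest with the sign as read here (2nd lowest with the sign turned). The spread between mice was the 675th widest, and its SD of 0.19 lay above the 0.10 of the median gene. The mean ratio was the same in both orientations within that spread, at 0.64 with knockout RNA in channel 1 and 0.67 in channel 2. It stayed between 0.59 and 0.72 when any 1 mouse was left out. Without the 2 arrays that stand apart it was 0.66, with mice 3 and 4 at 0.57 and 0.43.

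Aldh1a1 had no ratio shared by the knockout mice. The 4 arrays of mouse 2 gave 0.03, 1.01, 1.13 and 1.03, and those of mouse 4 gave -0.00, -0.24, 0.29 and 0.17. Those of mouse 3 gave -0.74, -0.51, -0.22 and -0.11, and those of mouse 1 gave -0.31, -1.14, -0.65 and -0.56. All arrays of mouse 2 lay above the pool and all arrays of mice 1 and 3 below it, and mouse 4 lay on both sides. Its values by mouse were -0.66, 0.80, -0.40 and 0.05 in mice 1 to 4, a mean of -0.05 ± 0.64 (SD, n = 4 mice), so that the spread between mice exceeded the mean. The array of mouse 2 at 0.03 overlapped the values of mouse 4. Leaving out mouse 2 moved the mean to -0.34, and leaving out mouse 1 moved it to 0.15. The spread also rested on mouse 2, without which the SD was 0.36. Without the arrays that stand apart mice 3 and 4 were at -0.52 and 0.13.

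Aldh1a7 was carried by 13 arrays, with blanks on array 3 of mouse 1 and on arrays 3 and 4 of mouse 3. The 4 arrays of mouse 2 gave 0.85, 0.81, 1.05 and 1.04, and those of mouse 4 gave -0.09, -0.10, -0.10 and 0.07. The 3 arrays of mouse 1 gave -0.65, -0.05 and -0.63, and the 2 arrays of mouse 3 gave -1.13 and -0.94. Mouse 2 was apart from every other mouse on all its arrays, and so was mouse 3 at the low end. Its values by mouse were -0.50, 0.94, -1.03 and -0.05 in mice 1 to 4, a mean of -0.16 ± 0.83 (SD, n = 4 mice). Between mouse 2 and mouse 3 the ratios were 1.97 apart on the log2 scale, against 0.40 between the highest and lowest mouse for Rdh16f2. The spread between mice ranked 3rd of 6191 genes for Aldh1a7 and 13th for Aldh1a1, and the median gene had an SD of 0.10. Without mouse 2 the mean of Aldh1a7 was -0.53, and without mouse 3 it was 0.13. The SD without mouse 2 was 0.49. Without the arrays that stand apart mice 3 and 4 were at -1.03 and -0.06.

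**Figure D1:**
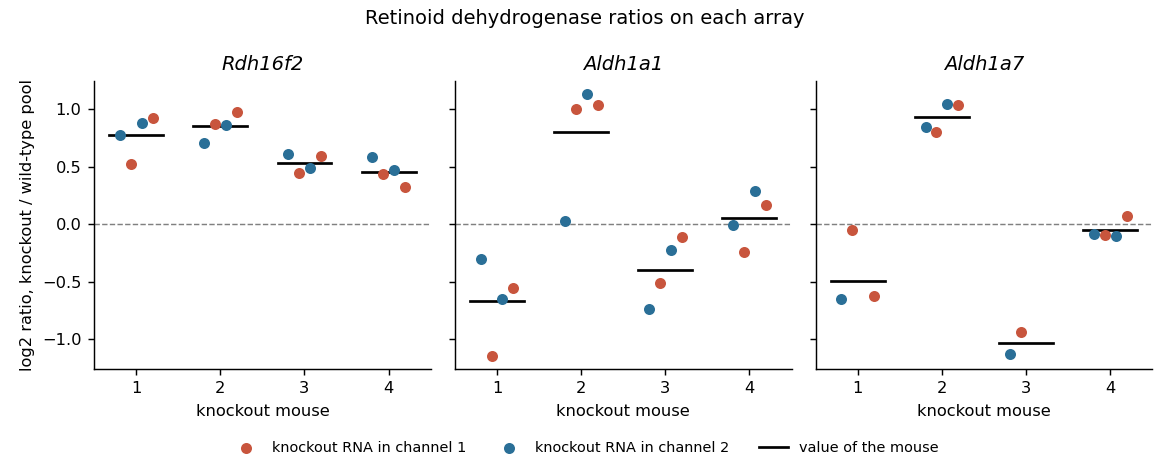
Log2 ratio of knockout over the wild-type pool (vertical axis) on each array, by knockout mouse (horizontal axis), for Rdh16f2, Aldh1a1 and Aldh1a7. Points are arrays coloured by the channel of the knockout RNA, and black bars are the value of each mouse. Rdh16f2 lies above 0 on all 16 arrays, while Aldh1a1 and Aldh1a7 are highest in mouse 2 and lie below 0 on all arrays of mice 1 and 3.

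Both Aldh1a genes were highest in mouse 2 and second highest in mouse 4, but they differed in the lowest mouse, which was mouse 1 for Aldh1a1 and mouse 3 for Aldh1a7. That order was not firm for Aldh1a1, which stood at -0.48 in both mice with knockout RNA in channel 2, and Aldh1a7 had no value on arrays 3 and 4 of mouse 3, where Aldh1a1 was closest to the pool. Over the 13 arrays with both values their Pearson r was 0.80, and after the mean of each mouse was taken out it was -0.21. Arrays of 1 mouse share its RNA and all arrays share the pool, so these values describe the pair and carry no test. On 1 array of mouse 1 they stood at -1.14 for Aldh1a1 and -0.05 for Aldh1a7, and on 1 array of mouse 2 at 0.03 and 0.85. A spotted cDNA can bind the transcript of a close paralog, and how far these probes share signal was not tested. Rdh16f2 had an r of 0.36 with Aldh1a1 (16 arrays) and 0.43 with Aldh1a7 (13 arrays). Its own values in mice 1 and 2 lay within the spread of its arrays, and mouse 1 was the higher with knockout RNA in channel 2 (0.83 against 0.79 in mouse 2). In mouse 1, where both Aldh1a genes lay below the pool, it was at 0.78.

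**Figure D2:**
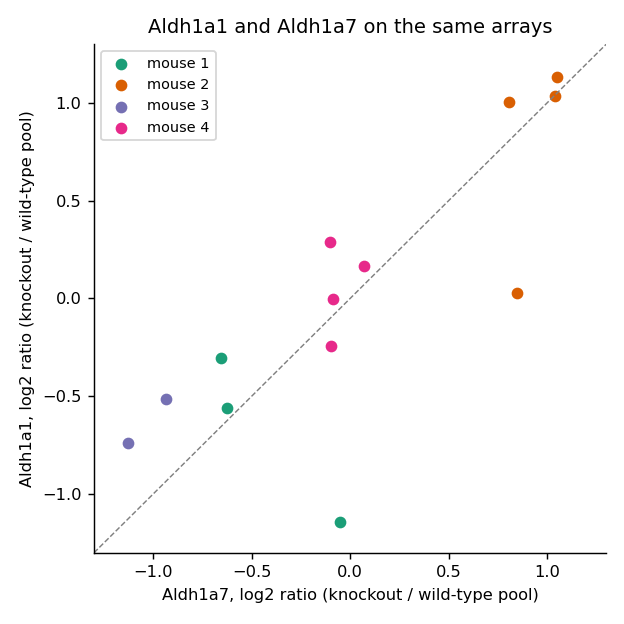
Log2 ratio of Aldh1a1 (vertical axis) against Aldh1a7 (horizontal axis), knockout over the wild-type pool, on the 13 arrays with both values, coloured by mouse. The dashed line marks equal ratios. The 4 arrays of mouse 2 lie to the right at 0.81 to 1.05 for Aldh1a7, and 1 of them has Aldh1a1 at 0.03.

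The genes beside the Aldh1a pair varied less between mice. Next to Aldh1a1, Anxa1, which encodes the phospholipid-binding annexin A1, had an SD of 0.20 between mice and its highest value in mouse 1 (0.22). Zfand5, 3 places beyond Aldh1a7, had an SD of 0.04. Of the row of retinol dehydrogenases around Rdh16f2, Rdh16 was the only other one with enough values for the tests. Rdh16, which oxidises retinol and some steroids, stood at 0.53, 0.45, 0.08 and 0.06 in mice 1 to 4, a mean of 0.28 (SE 0.08, n = 4). This did not pass the test against the pool (limma, adjusted p = 0.179) and passed the test between mice (moderated F test, adjusted p = 0.0162). Mice 1 and 2 were thus the higher ones for Rdh16 as they were for Rdh16f2, and mice 3 and 4 lay nearer to the pool, at 0.13 and 0.15 without the arrays that stand apart. Prim1 and Gpr182, on either side of the row, stood at -0.08 and 0.09. The Rdh16 call between mice was lost without mouse 1 (adjusted p = 0.170), mouse 2 (0.0641) or mouse 3 (0.110). Whether the Rdh16 and Rdh16f2 probes share signal was not tested.

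The other genes of the retinoid pathway were taken from 8 lists, which held 96 genes besides the 3 described above. Of these 47 had a probe of their own and 30 had enough values to be tested. In limma none of the 30 passed the test against the pool at an adjusted p of 0.05, where 0.21% of all genes passed (13 of 6191), 0.0646% as higher and 0.145% as lower in knockout kidney, and 10 of 30 had an unadjusted p under 0.05, against 1041 of 6191. Their median ratio was 0.03, with 21 of 30 above 0, and that of all genes was 0.00, with 2986 of 6191 above 0. Between mice 4 of the 30 passed, Dhrs3, Cyp26b1, Ppard and Rdh16, against 2.65% of all genes (164 of 6191). The median SD between mice was 0.09 for the 30 and 0.10 for all genes. These kidneys are whole organs, so fewer cells of a type and less RNA per cell cannot be told apart.

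**Figure D3:**
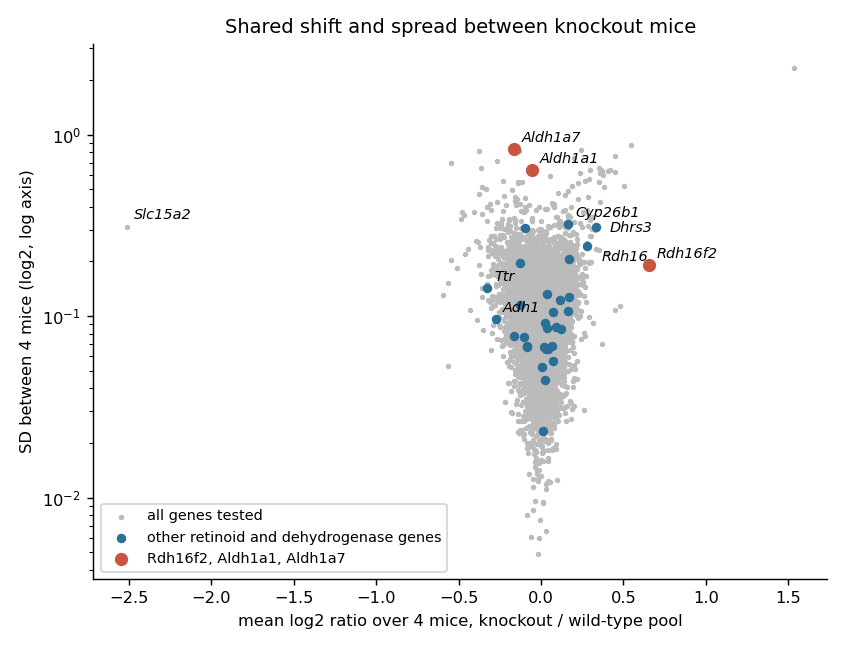
Mean log2 ratio of knockout over the wild-type pool over 4 mice (horizontal axis) and SD between these mice (vertical log axis) for all 6191 genes (grey), 30 other retinoid and dehydrogenase genes (blue) and Rdh16f2, Aldh1a1 and Aldh1a7 (red). Rdh16f2 lies to the right at 0.66 with an SD of 0.19, and Aldh1a7 and Aldh1a1 lie near 0 with SDs of 0.83 and 0.64. The unlabelled gene at the upper right is Svs5.

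Among retinol dehydrogenases and related short-chain dehydrogenases, 6 of 22 listed genes were tested, 5 had a positive ratio and the median was 0.08. Dhrs3, which reduces retinaldehyde back to retinol and is itself raised by retinoic acid, stood at 0.25, -0.06, 0.64 and 0.50 in mice 1 to 4. Its mean of 0.33 (SE 0.10) did not pass against the pool (adjusted p = 0.185) and it passed between mice (adjusted p = 0.00499). It was lowest in mouse 2, where both Aldh1a genes were highest. The mean of Dhrs3 was 0.44 with knockout RNA in channel 1 and 0.22 in channel 2. Without the arrays that stand apart, mice 3 and 4 were at 0.63 and 0.41, and the call between mice was lost without mouse 2 (adjusted p = 0.257) or mouse 3 (0.0773). Dhrs7 stood at 0.12 and Dhrs4, a peroxisomal carbonyl reductase that also reduces retinaldehyde, at -0.13. Rdh14 and Rdh11, microsomal retinal reductases, stood at 0.01 and 0.04 and had SDs of 0.02 and 0.07. Rdh5, Rdh7 and Hsd17b6 had probes but too many blanks.

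Of the other retinaldehyde dehydrogenases only Aldh8a1, long described as acting on 9-cis-retinal, was tested, and it stood at -0.08 (SE 0.05, adjusted p = 0.387), with values by mouse between -0.16 and 0.00. Of 15 listed aldehyde dehydrogenases of other families 6 were tested. All 6 ratios were positive, the highest was 0.17, and none passed either test. Aldh2, the mitochondrial enzyme of acetaldehyde oxidation, stood at -0.08, -0.05, 0.21 and 0.07 in mice 1 to 4. Aldh3b1 had its lowest value, -0.06, in mouse 2, and Aldh3b2 stood at 0.27 there and at 0.24, 0.11 and 0.05 in mice 1, 3 and 4. Aldh7a1, which degrades a lysine breakdown product, and Aldh5a1, the succinate semialdehyde dehydrogenase, stood at 0.07 and 0.04. The spread of Aldh1a1 and Aldh1a7, with SDs of 0.64 and 0.83, was thus not seen in these 6, whose SDs lay between 0.04 (Aldh16a1) and 0.13 (Aldh2).

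Of the alcohol dehydrogenases and aldo-keto reductases 3 of 8 were tested. Adh1, the class I enzyme that oxidises much of the retinol given in excess, stood at -0.32, -0.33, -0.13 and -0.32 in mice 1 to 4, a mean of -0.27 (SE 0.05). Its sign was the opposite of that of Rdh16f2 in every mouse, and it did not pass (adjusted p = 0.102). The mean of Adh1 was -0.16 with knockout RNA in channel 1 and -0.39 in channel 2. Adh5, the glutathione-dependent formaldehyde dehydrogenase, stood at -0.16 (SE 0.05, adjusted p = 0.177) with all 4 mice below the pool. Akr1a1 stood at 0.03.

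Genes of retinoid binding, uptake and storage were tested for 4 of 19. Ttr, the carrier that holds retinol-binding protein in plasma, stood at -0.33, -0.51, -0.16 and -0.31 in mice 1 to 4, a mean of -0.32 (SE 0.06, adjusted p = 0.102). That value averages 2 probes, which differed. With only probes that had values on all 16 arrays, a single Ttr probe was kept, at -0.52 (limma adjusted p = 0.0327), and the dropped probe lay nearer to the pool. Adh1 also passed in that setting (adjusted p = 0.0442), where 2681 genes were tested. Retsat, which saturates retinol, stood at 0.17 (SE 0.06, adjusted p = 0.207), but at 0.29 with knockout RNA in channel 1 and 0.04 in channel 2. The uptake receptors of the proximal tubule were close to the pool, Lrp2 (megalin) at 0.02 and Cubn (cubilin) at 0.07. Rbp4 had a probe but no value.

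Of the receptors and cofactors 7 of 14 were tested and 3 had a positive ratio. The retinoic acid receptor Rara stood at 0.07, and its partners Rxra and Rxrb stood at 0.09 and -0.09. Ppard, a nuclear receptor proposed to respond to retinoic acid, stood at -0.38, 0.19, -0.34 and 0.14 in mice 1 to 4 and passed between mice (adjusted p = 0.0126). As for both Aldh1a genes, mice 2 and 4 were the higher and mice 1 and 3 the lower ones, also without the arrays that stand apart (mice 3 and 4 at -0.33 and 0.11). The call was lost without mouse 1 (adjusted p = 0.111), mouse 2 (0.0654) or the term for orientation (0.0959). The fatty acid and retinoic acid carrier Fabp5 stood at -0.10 and the coactivators Ncoa2 and Ncoa1 at -0.13 and 0.00. Ncoa2 ranged from -0.34 in mouse 4 to 0.09 in mouse 2, with an SD of 0.53 between arrays of a mouse.

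Genes known to be raised by retinoic acid were tested for 4 of 20, and none passed against the pool. Cyp26b1, which degrades retinoic acid, stood at 0.06, -0.05, 0.64 and 0.00 in mice 1 to 4 and passed between mice (adjusted p = 0.00908). Mouse 3 alone was apart from the pool. Without the arrays that stand apart mouse 3 was at 0.78, and without mouse 3 the adjusted p was 0.892. With every array scaled to the same spread the adjusted p was 0.0632. Tgm2, a transglutaminase, stood at -0.04, 0.03, 0.35 and 0.35 in mice 1 to 4 (adjusted p between mice = 0.0622), and Ccn1 at 0.02 on average. Without the arrays that stand apart Tgm2 was at 0.39 and 0.33 in mice 3 and 4. Dhrs3 was lowest in mouse 2, where Aldh1a1 and Aldh1a7 were highest. Ccn1 was also lowest there, at -0.11, but did not pass between mice (moderated F test, adjusted p = 0.774), and Tgm2 was lowest in mouse 1. For Cyp26b1, mice 1, 2 and 4 differed by less than the SD of 0.18 between arrays of a mouse. For Dhrs3 the order of mice 3 and 4 differed between arrays 1 and 2 (0.58 and 0.68) and arrays 3 and 4 (0.70 and 0.32).

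**Figure D4:**
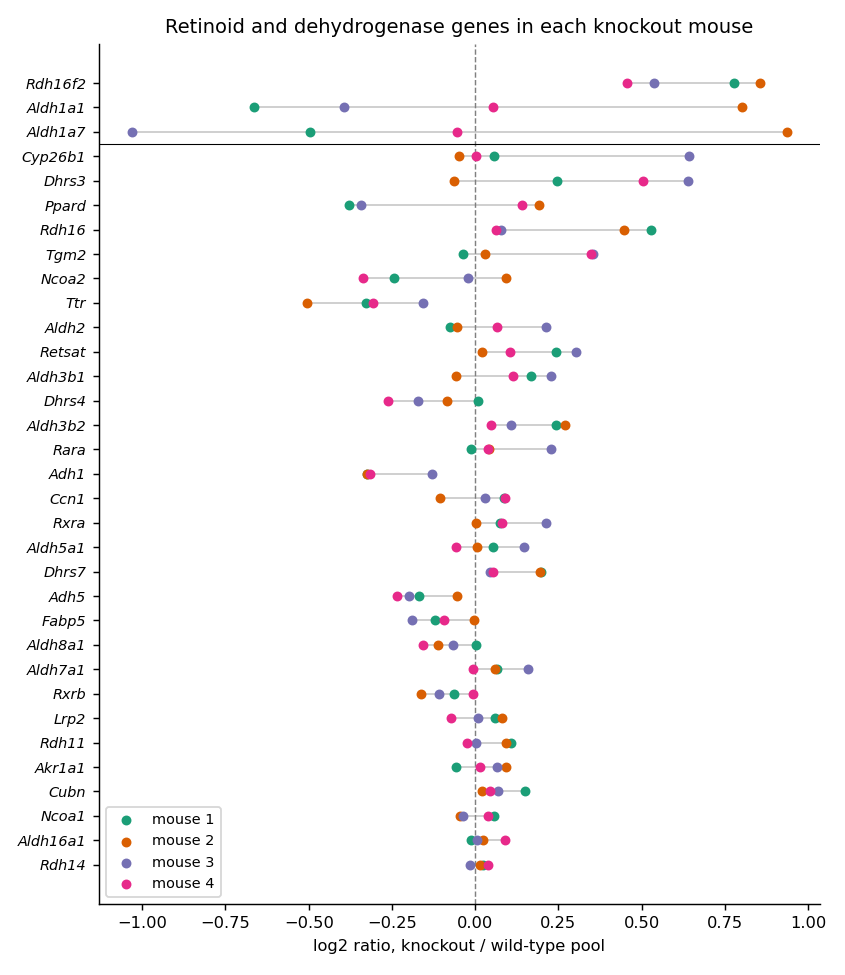
Log2 ratio of knockout over the wild-type pool (horizontal axis) in each of the 4 knockout mice (coloured points) for Rdh16f2, Aldh1a1 and Aldh1a7 (above the line) and the 30 other tested genes, ordered by SD between mice. Grey lines join the lowest and highest mouse. Mouse 2 is highest for all 3 upper genes and lowest for Dhrs3, and for Cyp26b1 mice 1, 2 and 4 lie close together.

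Genes whose values followed each of the 3 most closely over arrays were taken by Pearson r, among genes sharing at least 12 arrays. For Rdh16f2 these were Shmt1 (serine hydroxymethyltransferase, r = 0.86), Gsta2 (a glutathione transferase, 0.86), Ier3 (an early response gene, 0.85), Tceal9 (0.83) and Cyp4a14 (a fatty acid hydroxylase, 0.81). All 5 were higher in mice 1 and 2 than in mice 3 and 4, a split of Rdh16f2 that a choice by r favours. Gsta2 stood at 0.48, 0.68, -0.16 and -0.34 in mice 1 to 4. Unlike Rdh16f2, Gsta2 lay on both sides of the pool. For Aldh1a1 they were Nrbp1 (0.83), Asap1 (0.82), Rgs5 (0.82), Aldh1a7 (0.80) and Map1a (0.79), and for Aldh1a7 they were Asap1 (0.86), Ostf1 (0.86), Lpp (0.83), Rgs5 (0.82) and Aldh1a1 (0.80). Each Aldh1a gene was thus among the 5 most like the other, 4th of 5683 genes compared with Aldh1a1 and 5th of 4523 compared with Aldh1a7. Asap1, a regulator of the small GTPase Arf, stood at -0.29, 0.25, -0.34 and -0.03 in mice 1 to 4. Rgs5, which dampens G protein signals and marks pericytes, stood at -0.33, 0.07, -0.31 and -0.20. Ostf1 had the wider range, with 0.40 in mouse 2 and -0.68 in mouse 3.

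Marker genes of renal cell types and of tissue next to the kidney are given for the same mice, and their part in the values of the 3 dehydrogenases was not tested. Between mice 5 marker genes passed the moderated F test, where 2.65% of all genes passed (164 of 6191). They were Foxi1 (of 8 collecting duct markers tested), Umod (of 2 loop and distal tubule) and Col1a1 (of 9 podocyte, vessel and stroma). The others were Fabp4 (of 3 adipose) and Svs5 (of 2 male tract and urothelium). None passed of 11 proximal tubule, 7 leukocyte and 3 adrenal markers. Podocyte, vessel and stroma markers had medians of -0.18, -0.03, -0.23 and -0.12 in mice 1 to 4 (9 of 19 tested, 8 below the pool), the same order of mice as for Aldh1a7. The collagen genes had their highest value in mouse 2 and their lowest in mouse 3, with Col1a1 at -0.17, 0.21, -0.23 and 0.04 (adjusted p = 0.0406) and Col3a1 at -0.37, -0.02, -0.53 and -0.36 in mice 1 to 4. Other genes of that list had another order, with Ehd3 and Emcn highest in mouse 1 and Acta2 lowest in mouse 2. Collecting duct markers had medians of 0.11, 0.04, 0.08 and 0.03 (8 of 14), but Foxi1, a transcription factor of intercalated cells, stood at 0.41, 0.29, -0.40 and -0.21 in mice 1 to 4 (adjusted p = 0.000714). Mice 1 and 2 were thus above mice 3 and 4 for Foxi1, as they were for Rdh16f2 and Rdh16. Atp6v1g3 and Slc4a1 had the same split without passing between mice. Aqp2, Fxyd4, Hsd11b2, Scnn1a and Slc26a4 did not have it, and Aqp2 was lowest in mouse 1 (0.13) and highest in mouse 4 (0.46).

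Loop and distal tubule markers had medians of -0.14, -0.21, -0.10 and 0.05 in mice 1 to 4 (2 of 9 tested). Umod, the uromodulin of the thick ascending limb, stood at -0.14, -0.33, 0.19 and 0.27 (adjusted p = 0.0121), lowest in mouse 2 and higher in mice 3 and 4, and Ppp1r1a was lowest in mouse 3 at -0.39. Umod and Dhrs3 were both lowest in mouse 2, where Aldh1a1 and Aldh1a7 were highest. Proximal tubule markers had medians of 0.07, 0.02, 0.07 and -0.02 (11 of 20 tested). Of these the organic anion transporter Slc22a8 stood at 0.43, 0.34, 0.57 and 0.59 (mean 0.48, limma adjusted p = 0.0149). It was 1 of the 4 genes called higher among all 6191. That call was lost without mouse 1, without mouse 2, with knockout RNA in channel 2 alone and with at least 1 value per mouse. In each of these settings no gene was called higher. Whether the call of Slc22a8 held in the other settings was not followed. Slc13a3, a dicarboxylate transporter, was highest in mouse 1 (0.39), and Slc22a6, another anion transporter, was lowest in mouse 2 (-0.21).

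Leukocyte markers had medians of 0.07, 0.03, 0.19 and -0.00 (7 of 12), with Ptprc highest in mouse 1 (0.35) and Cd74 in mouse 4 (0.33). Adrenal markers were at 0.11, -0.08, 0.05 and 0.03 (3 of 13), with Star at -0.21 and Chga at 0.13 in mouse 2. Adipose markers were at -0.11, -0.11, -0.03 and -0.17 (3 of 9), where Fabp4 stood at -0.11, 0.34, 0.02 and -0.47 in mice 1 to 4 (adjusted p = 0.0107) and Retn had an SD of 0.08. Fabp4 was thus highest in mouse 2, as were Aldh1a1 and Aldh1a7, but lowest in mouse 4. Of the male tract and urothelium (2 of 12), the seminal vesicle gene Svs5 stood at 4.94 in mouse 3 and 1.09 in mouse 4, and at 0.21 and -0.09 in mice 1 and 2, while the urothelial Upk1a averaged -0.07.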

How the data were processed

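Per the labels, the authors scanned the slides on a GenePix 4000A, quantified them in GenePix Pro 3.0, subtracted background from mean intensities and scaled each array to a median ratio of 1. The authors deposited 1 log2 ratio per probe and array. The sources used here give neither the channel on top nor the reason for blank cells. Base 2 was worked out from the values.

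Each array was centred on its median and signed to knockout over wild type. Arrays were averaged within each orientation and both orientations within each of the 4 mice, which are the replicates. Probes naming 1 gene with at least 1 value in each mouse and orientation were averaged into 6191 genes. A single gene symbol was listed for 11723 of the 20205 probes, more than 1 for 806 and no symbol for 7676, and 11590 were matched by gene identifier to the GRCm38.p6 gene table. Ratios were tested against 0 by the moderated test of limma 3.58.1 (R 4.3.3), two-sided, with Benjamini-Hochberg adjustment over all genes. Mice were compared at array level by an F test with limma's variance moderation and an orientation term. That test takes arrays as independent and so compares these animals, not genotypes. Both were checked on simulated ratios that kept the blank cells. Promoter windows were aligned with Biopython 1.88.

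The 3 genes and the lists were chosen with earlier results of these data known, and no p-value is given for the 3 genes. Named besides them were genes of the retinoid lists past either test, the 4 with the smallest p and the 2 with the largest SD in each list, the 2 with the largest SD in each marker list, and the 5 most like each of the 3. Neighbouring genes, other tested retinoid genes, the other collecting duct markers and Slc22a8, Ehd3, Emcn and Acta2 were added with their values in view. Of the listed symbols, Rdh16f1 and Hsd17b9 are not in the gene table used and were not analysed here. Precision is limited by the number of animals.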

Additional observations from a re-analysis of the deposited data

Results flagged for a closer look

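In a search of 56 named genes over 4 mice and of 10 sets of 4 arrays of the 3 dehydrogenases, 5 sets had 1 value far from the other three, judged by its gap to the nearest value as a share of the whole range, against Dixon's critical value. Chance flags about 1 in 20 such sets. Adh1 was higher in mouse 3 (-0.13) than in the other mice, all near -0.32, with a gap share of 0.961. Cyp26b1 was higher in mouse 3 (0.64), with a gap share of 0.850. Hsd11b2, a collecting duct marker that inactivates glucocorticoid, was lower in mouse 2 (-0.10) than in the other mice (0.25 to 0.32), with a gap share of 0.850. Hsd11b2 had values on 12 arrays and an SD of 0.25 between arrays of a mouse. It did not pass between mice (moderated F test, adjusted p = 0.605). Aldh1a1 was lower on array 1 of mouse 2 (0.03) than on its other arrays (1.01 to 1.13), with a gap share of 0.885, while Aldh1a7 on that array was at 0.85. Aldh1a7 was higher on array 4 of mouse 4 (0.07) than on its other arrays (-0.10 to -0.09), with a gap share of 0.911.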

How the results depend on the processing

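The mean of Rdh16f2 lay between 0.59 and 0.72 under all 14 alternatives run for it, and leaving out 1 mouse at a time gave the same limits. Its sign could hardly change, because all 16 arrays were positive. The means of Aldh1a1 and Aldh1a7 ran from -0.34 to 0.15 and from -0.53 to 0.13 with 1 mouse left out. Leaving out 1 of 4 mice cannot move a mean by as much as the SD between them, so these limits are a description. Because of its blanks in mice 1 and 3, Aldh1a7 was left out with arrays 3 and 4 alone and with probes on all 16 arrays. With 1 probe per gene no probe could be set against another.

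The counts over all genes were less stable. Past the test against the pool were 13 genes, between 1 and 6 without 1 mouse, 1 with knockout RNA in channel 2 alone, 4 on arrays 1 and 2, 8 on arrays 3 and 4, 40 for probes on all 16 arrays, 2 with at least 1 value per mouse, and 465 with arrays as replicates and the mouse as a random block (correlation 0.015). Between mice 164 genes passed, between 42 and 140 without 1 mouse, 15 and 47 with knockout RNA in channel 1 or 2 alone, 31 on arrays 1 and 2, 22 on arrays 3 and 4, and 104 without the 2 arrays that stand apart, an alternative chosen after seeing the data.

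Of the 30 other retinoid genes, 4 passed between mice. From 1 to 4 passed without 1 mouse and 0 in each orientation and each pair of arrays alone, where between 22 and 36 were tested. Against the pool 2 of 19 tested passed for probes on all 16 arrays (Adh1 and Ttr), where 40 of all 2681 genes passed. With the mouse as a random block 5 of the 30 passed (Adh1, Adh5, Dhrs3, Rdh16 and Ttr), where 465 of all 6191 genes passed. Their median was 0.020 to 0.048 without 1 mouse, 0.063 and -0.0065 with knockout RNA in channel 1 or 2 alone, 0.060 on arrays 1 and 2, 0.051 as the median of arrays and 0.050 for probes on all 16 arrays. The causes were not tested. Without intensities no limit from dim spots could be set.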
